A study of Mus musculus with 8 samples.

Results

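The respiratory chain genes of mouse footpad skin were examined after intradermal PACAP. They comprise the nuclear-encoded subunits of complexes I to IV and of ATP synthase, together with the complex I assembly factors that carry the same name stem. The members were all genes on the array named Nduf, Sdha to Sdhd, Uqcr, Cox4 to Cox8 or Atp5, which gave 94 of 29608 gene names (139 of 39429 probes, 148 of 43020 spots). They divided into 7 core subunits, 32 accessory subunits and 8 assembly factors of complex I, 4 genes of complex II, 8 of complex III, 15 of complex IV, the 3 muscle-type complex IV isoforms Cox6a2, Cox7a1 and Cox8b, and 17 of ATP synthase. The name rule also takes in Ndufa4, which has been reassigned from complex I to complex IV, and its paralogue Ndufa4l2, and both were kept under the complex I names.

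PACAP is a neuropeptide that acts on the G protein-coupled receptor PAC1R, and the series asked what it changes in eccrine sweat gland-bearing skin with and without that receptor. Male mice of 9 to 10 weeks on the C57BL/6J background were either WT or Adcyap1r1 -/- (PAC1R KO), with 6 mice of each genotype injected, and the footpad of an anaesthetised mouse received 5 µL of PACAP at 1e-07 mol/L or the vehicle, which was saline with BSA in all groups. Palm skin was taken 30 or 60 min later. Each of the 4 comparisons (both genotypes at 30 and at 60 min) set 1 PACAP RNA against 1 vehicle RNA on 2 two-colour arrays with the dyes exchanged, so that 8 arrays measured 8 RNA samples and no comparison had an animal replicate. Tissue samples were ground one by one, but which mice entered each RNA, and whether RNA was pooled, is not given in the sources used here. The constitutive knockout removes the receptor from all cells, not from sweat glands alone.

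Mitochondrial ATP production rests on electrons entering at complex I (NADH) or complex II (succinate), passing through complex III to complex IV (cytochrome c oxidase), and on the proton gradient that complexes I, III and IV build and ATP synthase uses. Most subunits come from nuclear genes, whereas a few catalytic ones come from the mitochondrial DNA, and assembly factors help to build the complexes without being part of them. Complex IV carries exchangeable isoforms. Cox6a2, Cox7a1 and Cox8b are the forms of heart and skeletal muscle (Cox7a1 and Cox8b are also found in brown fat), whereas Cox6a1, Cox7a2 and Cox8a are the widely expressed ones.

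The contrast between these isoforms runs through the results, and so promoters are shown first. They are those of the muscle-type Cox7a1 and Cox8b and of the widely expressed Cox6a1, the partner of Cox6a2. Each line gives the 250 bases before the RefSeq transcription start (assembly GRCm38.p6), with searched motifs in capitals.
Cox7a1 (chr7:30183921-30184170, plus strand): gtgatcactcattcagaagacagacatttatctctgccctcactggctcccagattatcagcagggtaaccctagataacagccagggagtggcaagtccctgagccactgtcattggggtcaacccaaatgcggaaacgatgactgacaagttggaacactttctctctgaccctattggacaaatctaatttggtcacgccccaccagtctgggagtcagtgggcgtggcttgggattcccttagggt
Cox8b (chr7:140900447-140900696, minus strand): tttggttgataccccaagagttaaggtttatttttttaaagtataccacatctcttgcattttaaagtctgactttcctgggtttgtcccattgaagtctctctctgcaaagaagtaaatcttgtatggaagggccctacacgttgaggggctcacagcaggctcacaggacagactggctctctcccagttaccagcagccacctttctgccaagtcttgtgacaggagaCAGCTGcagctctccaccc
Cox6a1 (chr5:115348959-115349208, minus strand): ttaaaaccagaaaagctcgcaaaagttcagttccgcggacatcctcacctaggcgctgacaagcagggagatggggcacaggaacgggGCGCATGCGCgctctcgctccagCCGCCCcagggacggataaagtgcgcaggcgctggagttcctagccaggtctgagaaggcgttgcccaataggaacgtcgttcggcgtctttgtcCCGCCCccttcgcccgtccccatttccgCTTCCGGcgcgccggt
Cox7a1 held none of the 8 searched motifs. Cox8b held the E-box shown, and a TATA box and another E-box in the bases just after the start, which are not printed. Cox6a1 held overlapping NRF1 cores, an ETS core and GC boxes. RefSeq promoters were at hand for 76 of the 94 members and for 27025 genes in all, and each motif was searched on both strands over 300 bases, from 250 before to 50 after the start. Cox6a2 is among the members without an entry. The NRF1 core (GCATGCGC) stood in 12 member promoters (15.8%, against 3.05% of all genes), the ETS core (CCGGAAG) in 19 (25%, against 9.93%), and the YY1 motif (AAGATGGC) in 11 (14.5%, against 3.19%). The GC box (GGGCGG) was in 35 (46.1%, against 38.2%) and the ERR motif (TGACCTT) in 8 (10.5%, against 5.38%). The remaining motifs were scarcer among the members than among all genes. The E-box (CAGCTG) was in 6 (7.89%, against 18.3%), the MEF2 motif (CTA and TAG with 4 bases between) in 2 (2.63%, against 4.23%) and the TATA box (TATAAA) in 8 (10.5%, against 15.7%). The upstream sequences of the members were GC-rich, with a median of 57.4% G and C and 14.75 CpG dinucleotides against 52.4% and 6 for all genes. Cox7a1 had 4 CpG against 14 for its partner Cox7a2, and Cox8b had 1 against 11 for Cox8a, while Cox6a1 had 26. Cox7a2 held a GC box and Cox8a ETS cores, and neither held an NRF1 core. These are letter matches and counts, and no binding was measured.

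Ratios are the log ratios of the scanner software turned to PACAP over vehicle, on the log2 scale, averaged over the 2 arrays. The SD between those arrays is technical. Levels are background-corrected, normalised log2 intensities, averaged over both dyes. A gene was represented by its brightest probe and was tested where, on both arrays, at least 1 channel of that probe stood well above background. Of the 94 members, 92 passed in all 4 comparisons, each well above background in all 16 channels. The other 2, Cox7b2 and Cox8c, which are testis isoforms of complex IV, passed in none. A gene was called where the mean ratio reached 1.5-fold and both arrays gave the same direction with a software p under 0.01. This p describes pixel and error-model noise of 1 spot, not animals.

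Across the 8 arrays, 78.6% to 94.5% of red and 54.0% to 65.3% of green signals were well above background, 198 to 342 spots were marked as outliers and 0 were saturated. Over all genes the ratios of the 2 dye-swapped arrays, both turned to PACAP over vehicle, correlated at -0.25, -0.17, -0.36 and -0.46 for WT 30 min, KO 30 min, WT 60 min and KO 60 min. Over the members these correlations were 0.47, 0.62, -0.11 and -0.48, and at 60 min a member's 2 arrays thus did not rank the genes alike. The targeted receptor gene, Adcyap1r1, had levels of 8.28 and 8.26 (vehicle, PACAP) in WT and 7.98 and 7.91 in KO at 30 min, and 8.67 and 8.76 in WT and 8.56 and 8.42 in KO at 60 min. KO lay below WT at each time, but the ranges over both times overlapped, and the probe is not known to lie in the deleted part. The WT arrays shared 1 slide and the KO arrays a second one, and the effects of genotype and of slide cannot be told apart. Markers of keratinocytes (7 genes) and eccrine glands (8 genes, Aqp5 and Foxa1 among them) passed in every comparison. In the WT 60 min pair hepatocyte markers, which are not skin genes, differed as well, with 4 of 6 called lower after PACAP.

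PACAP treatment left most respiratory chain genes within 1.2-fold of vehicle, in numbers from 66 of 92 in KO at 30 min to 92 of 92 in KO at 60 min. The members farthest from vehicle were the muscle-type isoforms in WT at 30 min, where 2 of 92 members (2.17%) were called higher, Cox6a2 and Cox8b, and 0 were called lower. Of all 23168 genes tested there, 1.61% were called higher and 0.337% lower, so the members' share was near that of the array. In the other comparisons 0 members were called in either direction. The shares over all genes were 1.86% higher and 1.46% lower in KO at 30 min, 0.982% and 0.207% in WT at 60 min, and 0.455% and 0.276% in KO at 60 min. At 2.0-fold, the threshold of the study's methods, 0 members were called in any comparison, while the shares of all genes, higher and lower, were 0.341% and 0.138% (WT 30 min), 0.782% and 0.111% (KO 30 min), 0.759% and 0.133% (WT 60 min), and 0.198% and 0.179% (KO 60 min).

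**Figure D1:**
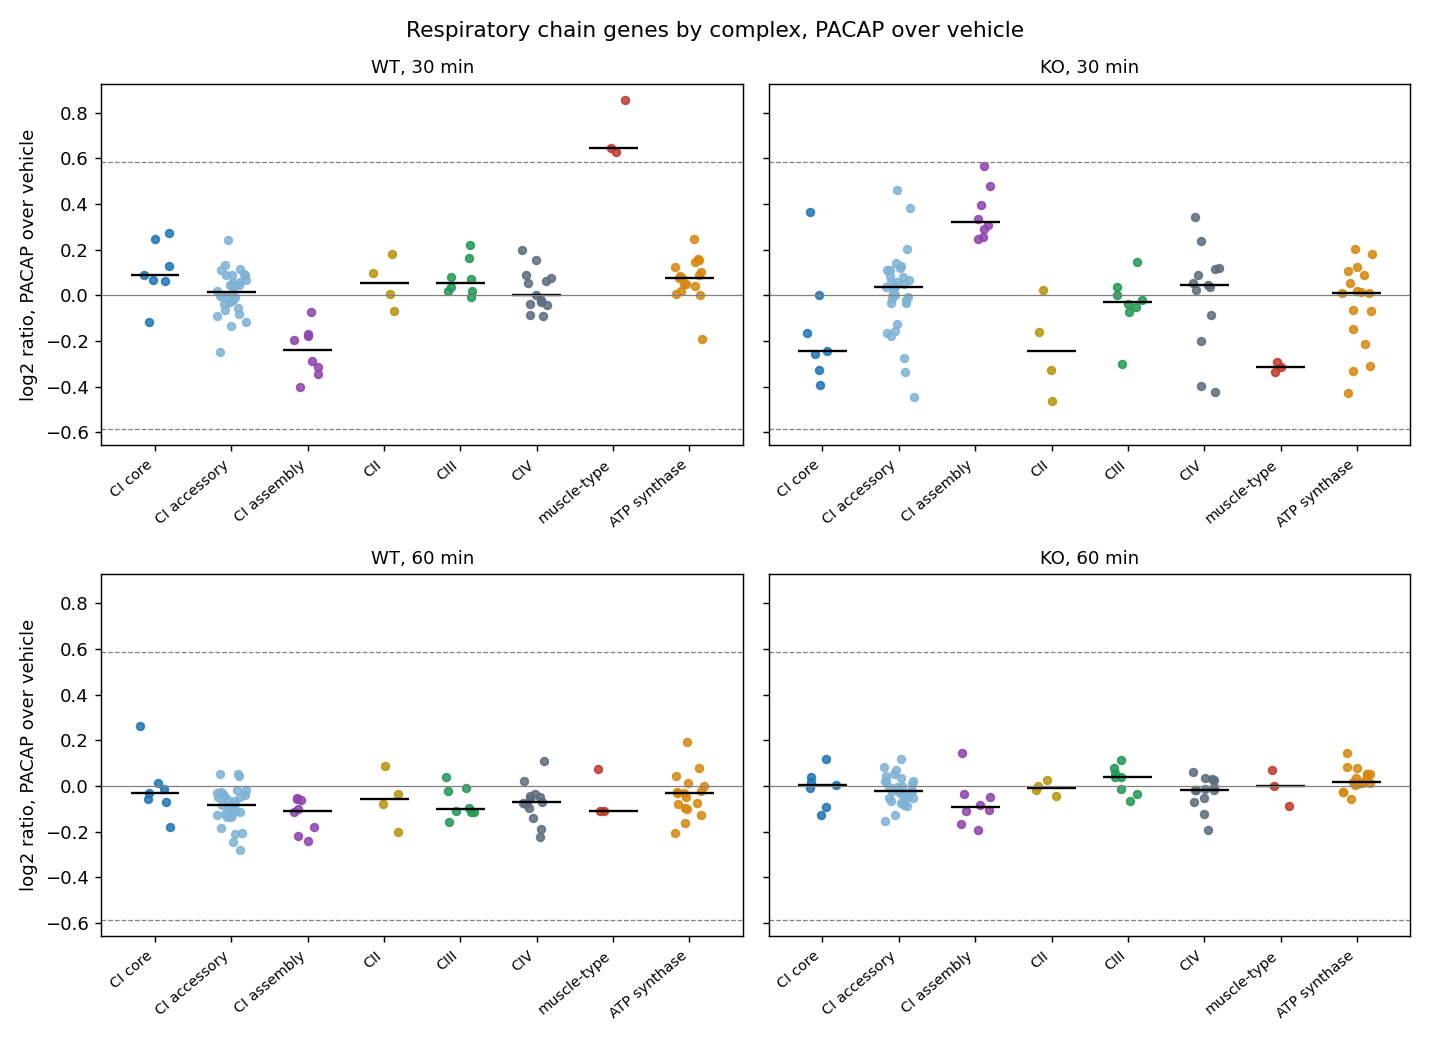
Log2 ratio of PACAP over vehicle (y axis) for the 92 members that passed, by complex (x axis), in the 4 comparisons. Each point is 1 gene, the mean of its 2 arrays, black bars are group medians and dashed lines mark 1.5-fold. The muscle-type isoforms stand apart in WT at 30 min with a median of 0.64, and the complex I assembly factors lie below 0 there and above 0 in KO at 30 min.

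The median ratio of the 92 members was 0.043 in WT at 30 min (0.043 SD between the arrays' medians), 0.014 in KO at 30 min, -0.073 in WT at 60 min and -0.0086 in KO at 60 min. Over all genes the medians were -0.041, 0.000, -0.010 and 0.000. The sign of the WT 30 min value rested on 1 array, since the first array alone gave -0.0066. In WT at 60 min 14 of the 92 members lay above 0 (15.2%, against 43.9% of all genes; 23 members with normexp and loess ratios), and both arrays had a median below 0 (-0.099 and -0.040). Within 1.2-fold of vehicle were 84, 66, 91 and 92 of the 92 members, or 91.3%, 71.7%, 98.9% and 100%, and KO at 30 min was thus the most dispersed of the 4, with 6 of its 8 assembly factors outside 1.2-fold. Most members are bright, and the brightest genes of the array lay closest to vehicle, so these shares are set against genes of the same level. At a log2 level of 14 to 17, 96.2%, 86.8%, 100% and 100% of 53 members were within 1.2-fold, against 85.4%, 78.6%, 94.6% and 97.2% of 1158 genes. At 12 to 14 the shares of 27 members were 92.6%, 59.3%, 96.3% and 100%, against 83.0%, 61.0%, 91.3% and 95.3% of all genes there, so that in KO at 30 min the members of this range were no closer to vehicle than other genes. At 10 to 12, 62.5% of 8 members were within 1.2-fold in WT at 30 min against 69.9% of all genes. In KO at 30 min these shares were 12.5% and 47.1%, so the members were farther from vehicle there. All of these members but Ndufa11b were complex I assembly factors, which are described below. At 8 to 10, 75% of 4 members were within 1.2-fold at 30 min in both genotypes, against 62.2% of all genes in WT and 49.2% in KO. Among the medians by complex given next, the 2 arrays had opposite signs for complex IV in every comparison, for the accessory subunits of complex I in WT at 30 min, for complex III in both genotypes at 30 min, for ATP synthase in KO at both times, for the core of complex I in both genotypes at 60 min and for complex II in WT at 60 min.

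The catalytic core of complex I, the arm that takes electrons from NADH, had 6 of 7 genes above 0 in WT at 30 min (median 0.088) and 2 of 7 in KO at 30 min (median -0.24). Ndufs1, which binds several of the iron-sulphur clusters, gave 0.25 and 0.24 on the 2 arrays of the WT pair at 30 min, and 0.25 and 0.28 on those at 60 min. In KO mice its arrays gave -0.39 and -0.26 at 30 min, and 0.00 and 0.01 at 60 min. It was thus above 0 on all 4 WT arrays and clearly below 0 in KO at the earlier time. Ndufs7, the subunit with the last cluster before ubiquinone, gave 0.35 and 0.19 in WT and -0.32 and -0.47 in KO at 30 min, with means of -0.058 and 0.040 in WT and KO at 60 min. Ndufs8 went against its neighbours, with -0.12 and -0.11 in WT and 0.34 and 0.39 in KO at 30 min. Ndufv1, the NADH-binding subunit, had means of 0.068, -0.24, 0.011 and -0.011 over the 4 comparisons in the order above. None of these 7 genes was called.

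The 32 accessory subunits of complex I, which surround the core without carrying its redox centres, had medians of 0.014, 0.036, -0.084 and -0.023. In WT at 60 min 3 of the 32 were above 0. Ndufa11 gave 0.61 and 0.31 on the arrays of KO at 30 min, a mean of 0.46, and its related gene Ndufa11b 0.32 and 0.44. Their probes may share target sequence, and both were within 0.1 of 0 on the mean of every other comparison. Ndufa4l2, the hypoxia-responsive relative of Ndufa4, averaged -0.22 over the 4 comparisons, with the smallest p of any member in the limma fit of the mean PACAP effect (adjusted p = 1), and with -0.25 in both WT pairs, -0.45 in KO at 30 min and 0.043 in KO at 60 min. Its arrays in KO at 60 min gave 0.16 and -0.08, and all others lay below 0. Ndufa4 itself had means between -0.034 and 0.11.

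The assembly factors of complex I were, apart from the muscle-type isoforms, the group whose medians lay farthest apart in WT and KO at 30 min. By their brightest probes, all 8 lay below 0 in WT (median -0.24) and all 8 above 0 in KO (median 0.32). Other probes disagreed for Ndufaf4, of which one stood at 0.23 in WT and -0.14 in KO, and for Ndufaf5, of which one stood at -0.098 in KO. Genes in the same range of level had medians of -0.0049 and -0.084 (4745 genes each). At 60 min 8 of 8 were below 0 in WT (median -0.11) and 7 of 8 in KO (median -0.094). Ndufaf3, which acts early in building the ubiquinone-binding module, gave -0.35 on both arrays in WT at 30 min and 0.55 and 0.58 in KO, a mean 1.48-fold that stopped short of the threshold. Ndufaf2, a chaperone of late assembly, gave -0.32 and -0.25 in WT and 0.45 and 0.50 in KO. Ndufaf6 gave -0.29 and -0.34 against 0.29 and 0.37, so that in these 3 genes every WT array at 30 min was below 0 and every KO array above it. Ndufaf5 had the widest range of level of any member that passed, from 7.37 in the PACAP sample of WT at 30 min to 9.91 in that of KO at 30 min, with its vehicle samples at 7.60 and 9.66. Its different probes spread by 0.40 in WT at 30 min.

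Complex II, the succinate dehydrogenase shared with the TCA cycle, had medians of 0.051, -0.24, -0.057 and -0.0092. Sdha, the flavoprotein that oxidises succinate, gave -0.45 and -0.48 in KO at 30 min, the lowest mean of any member in any comparison (-0.46), against 0.27 and 0.09 in WT at 30 min. Sdhc, a membrane anchor, had means of -0.068, -0.33, -0.20 and 0.00. Complex III, which passes electrons from ubiquinol to cytochrome c, had medians of 0.054, -0.030, -0.10 and 0.039. In WT at 30 min the arrays' own medians were 0.14 and -0.027, and 2 of the 8 genes had the same sign on both arrays. Uqcrb stood at 0.22 and 0.14 in WT and KO at 30 min, and Uqcrc1, a core protein, at 0.081 and -0.30. Uqcrc2 had outlier spots on 3 of the 4 KO arrays.

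ATP synthase had a median of 0.077 in WT at 30 min (0.032 and 0.11 on the single arrays) and medians of 0.011, -0.032 and 0.016 in the other 3 comparisons. In WT at 30 min 15 of its 17 genes had a mean above 0, but 7 went the same way on both arrays, 6 above 0 and 1 below. Atp5b, the catalytic beta subunit, gave -0.35 and -0.51 in KO at 30 min and 0.19 and -0.11 in WT. Atp5a1, the alpha subunit, gave -0.44 and -0.18 in KO at 30 min and had means of 0.12 and 0.19 in WT at 30 and 60 min. Atp5g3, one of the genes for the c-ring, gave 0.17 and 0.15 in WT and -0.26 and -0.41 in KO at 30 min. Atp5c1, the gamma subunit of the central stalk, went the other way with means of -0.19 and 0.18.

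Complex IV outside the muscle-type isoforms had medians of 0.0029, 0.044, -0.072 and -0.017 over 13 genes. Cox4i1, the widely expressed form of subunit 4, gave -0.53 and -0.26 in KO at 30 min and -0.18 and 0.19 in WT. Cox5a, which binds next to it, gave -0.62 and -0.23 in KO at 30 min. Cox6b1 had the highest mean of the group in that comparison, with 0.36 and 0.33. Its testis relative Cox6b2 had means of -0.089, 0.24, -0.19 and -0.19, and the lung and hypoxia isoform Cox4i2 stayed between -0.095 and 0.089.

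The muscle-type isoforms stood apart from their partners in WT at 30 min. Cox6a2 gave 0.76 and 0.95 on the 2 arrays, a mean of 0.85 ± 0.13 (SD of 2 arrays) or 1.81-fold, and was called higher. Cox8b gave 0.54 and 0.71, a mean of 0.63 ± 0.12 or 1.54-fold, and was called higher. Cox7a1 gave 0.53 and 0.75, a mean of 0.64 ± 0.16 or 1.56-fold, and was not called because the p of its first array was 0.011. The widely expressed partners had means of -0.093 (Cox6a1), -0.029 (Cox7a2) and 0.15 (Cox8a) in the same RNA. The widely expressed forms were thus each nearer to 0 than their muscle-type counterparts.

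In KO at 30 min the same 3 isoforms were below 0 on both arrays. Cox6a2 gave -0.39 and -0.24, Cox7a1 -0.43 and -0.24, and Cox8b -0.20 and -0.39, with means of -0.31, -0.33 and -0.29, and none was called. Their partners stood at -0.087, 0.11 and 0.038. At 60 min the 3 isoforms ranged from -0.11 to 0.072 in WT and from -0.086 to 0.070 in KO, and in each genotype the 2 arrays had the same sign for 1 of the 3, Cox8b in WT and Cox7a1 in KO.

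**Figure D2:**
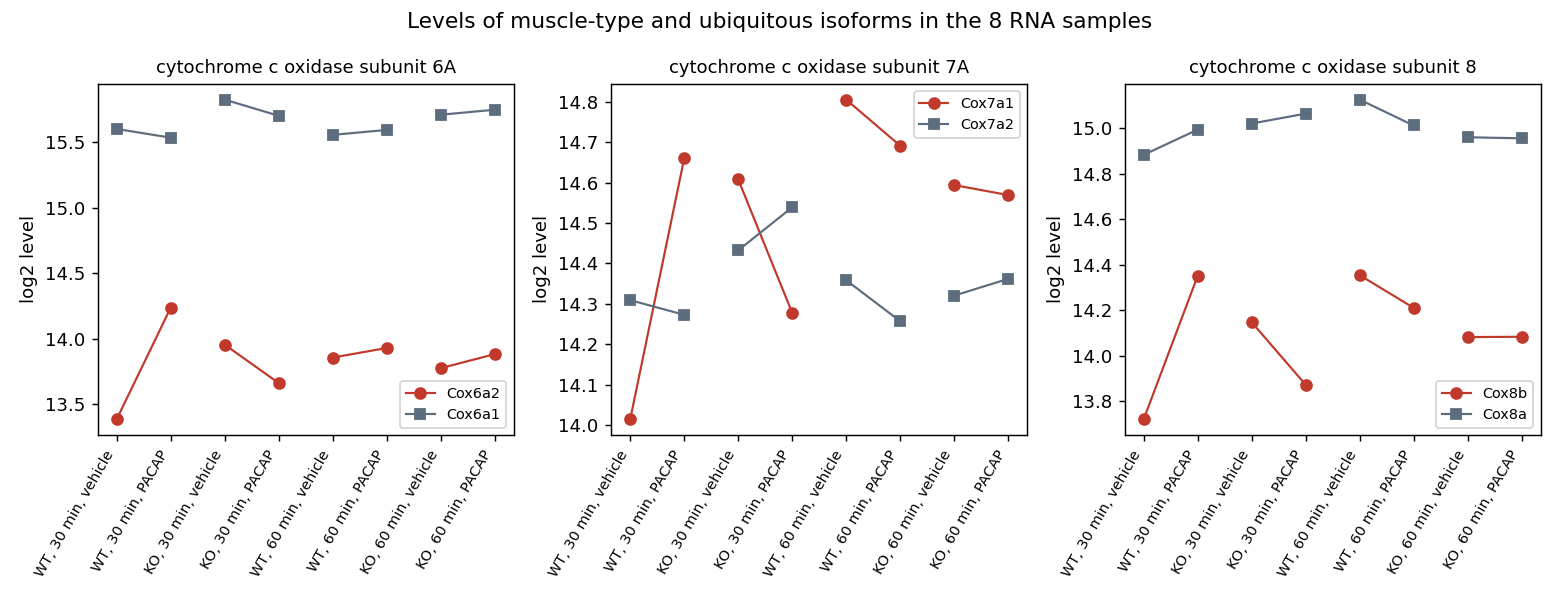
Normalised log2 level (y axis) of 3 muscle-type isoforms and their widely expressed partners in the 8 RNA samples (x axis), each point the mean of both dyes, with lines joining the vehicle and PACAP samples of a comparison. The y axes differ between panels and do not start at 0. The WT 30 min vehicle sample is the lowest of the 8 for Cox6a2 (13.39), Cox7a1 (14.02) and Cox8b (13.72).

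The levels show which samples stood apart. Cox6a2 was at 13.39 in the WT 30 min vehicle sample and at 14.24 in its PACAP sample, and between 13.66 and 13.95 in the other 6 samples. Cox7a1 in WT mice was at 14.02 in vehicle and 14.66 after PACAP at 30 min, and at 14.81 and 14.69 at 60 min. In KO mice it was at 14.61 and 14.28, then 14.59 and 14.57. Cox8b in WT mice was at 13.72 and 14.35, then 14.36 and 14.21, and in KO mice at 14.15 and 13.87, then 14.08 and 14.08. For all 3 the WT 30 min vehicle sample was the lowest of the 8. For Cox7a1 and Cox8b the PACAP sample of that pair lay inside the range of the other 6, and for Cox6a2 it was the highest of the 8. For Cox8b that PACAP sample was just below the highest value, that of the WT 60 min vehicle sample.

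Skeletal muscle markers moved with these isoforms. Of 24 contractile and related genes (myosins, troponins, Ttn, Ckm, Mb and others), all above background, 23 were above 0 in WT at 30 min and 18 were called higher (median 0.79), while in KO at 30 min 1 was above 0 and 13 were called lower (median -0.68). At 60 min the medians were -0.0032 (-0.013 and 0.0058 on the single arrays) and 0.028, and 1 gene, Myh1, was called higher in KO. Their summed log2 level went from 17.82 in vehicle to 18.67 after PACAP in WT at 30 min and from 18.42 to 17.76 in KO, and stayed within 18.22 to 18.32 in the 60 min samples. The WT 30 min vehicle sample and the KO 30 min PACAP sample thus had the least muscle marker RNA of the 8. The WT 30 min PACAP sample had the most. In these bulk samples fewer cells of a type and less RNA per cell cannot be told apart, and the part of muscle content in the isoforms' ratios was not tested.

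The subunits encoded by the mitochondrial DNA, which is read from long transcripts of both strands, are not members, but 9 were on the array and they have the clearest values in WT at 30 min. Probes of 3 of them and of Cox7a1 are printed because ND6 is the subunit read from the opposite strand and went apart from the rest, and because the Cox7a1 probe lies in coding sequence across an exon junction (60 bases over 612 bases of genome). Coordinates are those of the files (mm9).
ND1 (chrM:2898-2957, plus strand): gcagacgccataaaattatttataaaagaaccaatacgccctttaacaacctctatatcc
CYTB (chrM:15099-15158, plus strand): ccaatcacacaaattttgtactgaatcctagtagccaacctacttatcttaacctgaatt
ND6 (chrM:13552-13611, minus strand, up to the stop codon): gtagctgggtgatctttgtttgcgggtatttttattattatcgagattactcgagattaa
Cox7a1 (chr7:30970337-30970948, plus strand): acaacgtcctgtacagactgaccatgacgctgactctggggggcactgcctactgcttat
ND1 and CYTB, of complexes I and III, hold 8.33% G on the strand printed, and ND6 holds 25%. In WT at 30 min 8 of the 9 mitochondrial genes were called higher (median 0.81), which falls to 0 at 2.0-fold. CYTB gave 0.82 and 1.17, ND1 0.71 and 0.67, and ND2 0.79 and 1.14. The exception was ND6, with -0.28 and 0.06. In KO at 30 min 0 were called and 4 of 9 were above 0 (median -0.20, with 0.043 on the first array alone), and ND6 was the highest at 0.37. At 60 min 9 of 9 were above 0 in WT (median 0.21, but 0.28 and 0.069 on the single arrays) and 8 of 9 in KO (median 0.11, and 0.076 and 0.14), again with 0 called. The file places the ND3 probe on chromosome 1, so its signal may come from a nuclear copy. The nuclear-encoded partners of these subunits had medians between 0.0029 and 0.088 in WT at 30 min, the muscle-type isoforms and assembly factors apart.

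**Figure D3:**
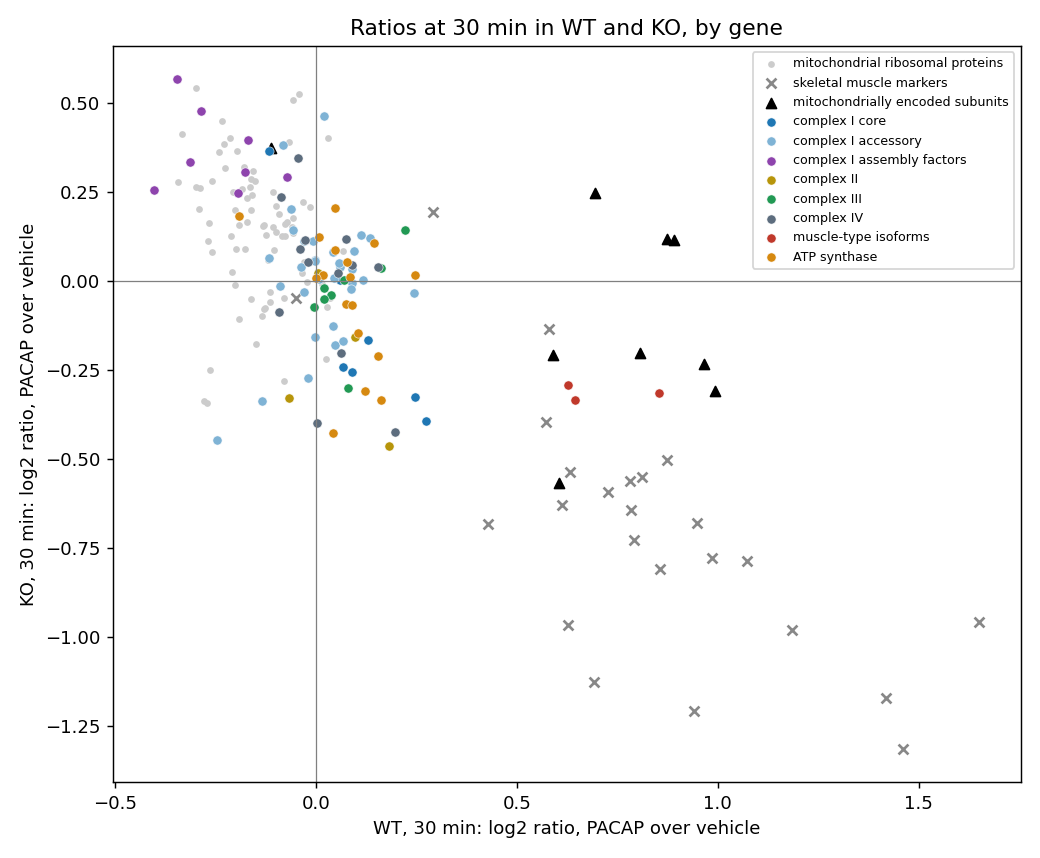
Log2 ratio of PACAP over vehicle at 30 min in WT (x axis) and KO (y axis), 1 point per gene, for the 92 members by group and for 3 other lists. Muscle-type isoforms (red) lie to the lower right with the skeletal muscle markers, assembly factors (purple) to the upper left with the mitochondrial ribosomal proteins, and 8 of 9 mitochondrially encoded subunits beyond 0.5 in WT.

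Over the 92 members the WT and KO ratios at 30 min correlated at r = -0.52 (Spearman rho -0.47), and at r = -0.50 over the 89 without the muscle-type isoforms. Over the 23067 genes that passed in all 4 comparisons, r was -0.39 and rho -0.53, so the members followed the whole array in this. The genes are not independent, and the 2 comparisons share no RNA but differ in slide. In 7 members both WT arrays went one way, both KO arrays the other and both means passed 1.2-fold, namely the 3 muscle-type isoforms, Ndufs7, Ndufaf2, Ndufaf3 and Ndufaf6. They were 7.61% of the 92 members, against 14.9% of 23131 genes, so the members did not stand out in this count. That difference at 30 min was not tested, since each genotype had 1 pair.

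Other mitochondrial genes fell on one side or the other of this contrast. Mitochondrial ribosomal proteins, which translate the mitochondrially encoded subunits, ran with the assembly factors. Of 78, 6 were above 0 in WT at 30 min (median -0.15) and 59 in KO (median 0.16), with medians of -0.081 and -0.028 at 60 min and 0 called. The 14 assembly and copper delivery factors of complexes II to IV had 3 above 0 in WT at 30 min (median -0.19) and 9 in KO (median 0.14), and Cox15, which makes haem A, was called lower in KO at 30 min. The TCA cycle and pyruvate dehydrogenase genes ran the other way, with 15 of 16 above 0 in WT at 30 min (median 0.22) and 2 of 16 in KO (median -0.25), none called.

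Among 10 electron carriers, ATP exporters and outer membrane channels (medians 0.076 and -0.21 at 30 min) the muscle forms had the highest ratios in WT. Slc25a4, the ADP/ATP carrier of heart and muscle, had means of 0.61 and -0.52 in WT and KO, and Ckmt2, the mitochondrial creatine kinase of muscle, 0.57 and -0.31. Slc25a5, the widely expressed carrier, stood at -0.11 and 0.27. The 9 regulators of mitochondrial gene expression had medians of 0.18 and -0.42, and in KO at 30 min they ranged from -1.51 to 0.11. The lowest, Ppargc1a, a coactivator of mitochondrial biogenesis, gave -0.56 and -2.46 there and was not called. Esrrg, an oestrogen-related receptor that binds genes of oxidative metabolism, was called lower with -0.79 and -0.57. Fatty acid beta-oxidation had medians of 0.16 and -0.20 over 13 genes, none called. Glycolysis had a median of 0.17 in WT at 30 min, with 2 of 16 genes called higher, and of -0.34 in KO, with 6 called lower.

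**Figure D4:**
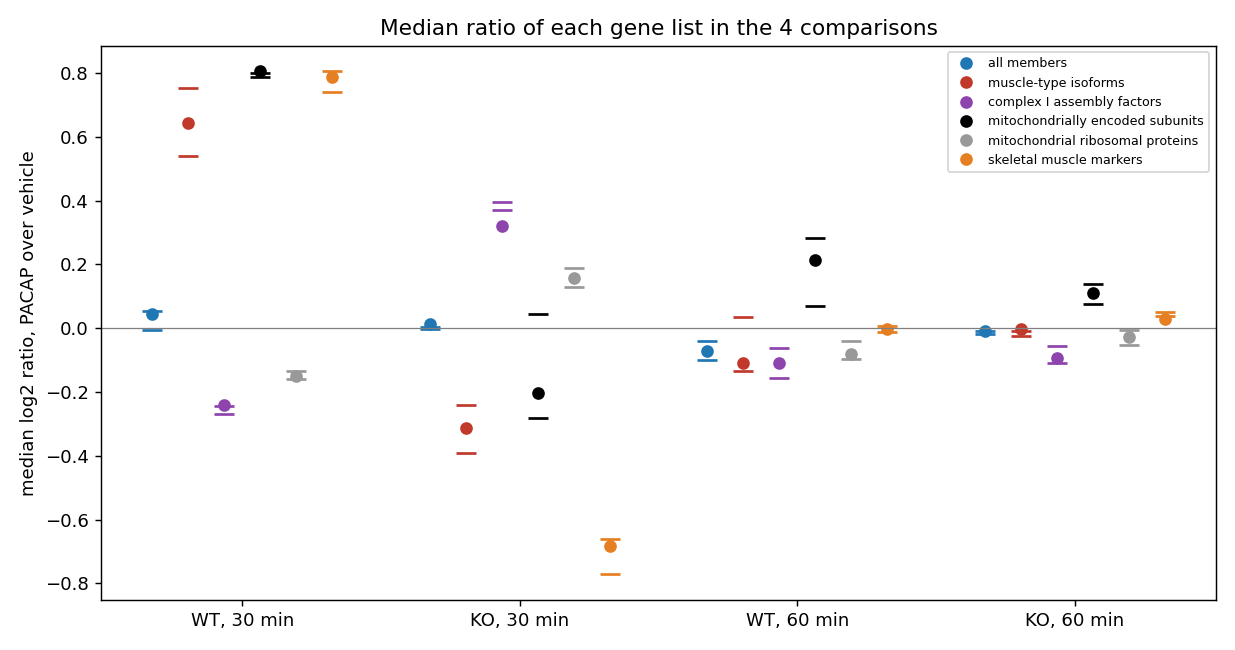
Median log2 ratio of PACAP over vehicle (y axis) of 6 gene lists in the 4 comparisons (x axis). Points are medians of the mean of both arrays and dashes the medians of each array alone, which need not enclose the point. In WT at 30 min the lists spread from -0.24 (assembly factors) to 0.81 (mitochondrially encoded subunits), while all members together sat at 0.043.

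Markers of other cell types also differed. At 30 min keratinocyte markers had a median of 0.16 in WT and -0.66 in KO, where 4 of 7 were called lower, and eccrine gland markers -0.17 and -0.45, with 2 of 8 called lower in KO. Brown adipocyte markers had medians of 0.16 and 0.37, with 1 of 5 called higher in KO. Their summed level went from 11.65 to 12.03 in WT and from 11.64 to 12.13 in KO. White adipocyte markers had medians of -0.11 and -0.013. Neutrophil markers had medians of 0.061 and 0.29, with 2 of 7 called higher in WT and 3 of 7 in KO, and their summed level went from 13.56 to 14.18 in WT and from 13.62 to 14.99 in KO. Heart muscle markers had medians of 0.0023 and -0.037, with 1 of 4 called higher in WT (0.85) and 1 called lower in KO (-0.79). Housekeeping genes had medians of 0.15 and 0.072, with Gapdh at 0.38 in WT and -0.30 in KO. That list includes the member Sdha, and Gapdh is also in the glycolysis list. At 60 min 2 of 5 brown adipocyte markers were called higher in WT, with a summed level from 12.22 to 12.91. The other 3 lay below 0 there, and the median was -0.086. In KO 0 were called and 4 of 5 were above 0 (median 0.14), with a summed level from 12.82 to 13.10. Of the neutrophil markers 1 of 7 was called higher in WT (summed level 14.16 to 14.67), but 4 of 7 lay below 0 (median -0.016). Among them 2 of 7 were called higher in KO (13.81 to 15.39), and 3 of 7 lay below 0 (median 0.14). The part of these cell types in the members' ratios was not tested.

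Fits over the 4 pairs, with each comparison as 1 replicate, called 0 members and 0 of 30351 probes (0%) for the mean PACAP effect, for its difference between KO and WT (0%) and for its difference between 60 and 30 min (0%), by limma with Benjamini-Hochberg adjustment. At an unadjusted p under 0.05 there were 678, 972 and 483 probes and 0 members. The member with the smallest p for KO against WT was Ndufs1, whose difference KO minus WT was -0.41 ± 0.21 (SE; limma adjusted p = 0.839), with means of 0.25 in WT and -0.16 in KO. For Cox6a2 the difference was -0.59 ± 0.31 (limma adjusted p = 0.839), with means of 0.46 in WT and -0.12 in KO. With 2 pairs per genotype such differences had wide errors, and a p that missed the threshold does not show that WT and KO responded alike.

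Levels without regard to PACAP separated the genotypes in a smaller share of the members than of all genes. In 2 of 92 all 4 KO samples lay below all 4 WT samples (8.23% of all genes did so), and in 5 all KO samples lay above (9.20%). Ndufa10, an accessory subunit, was at 10.12 and 10.13, 10.40 and 10.33 in WT and at 9.64 and 9.41, 9.97 and 9.85 in KO (vehicle, PACAP at 30 and then 60 min), a mean of 10.24 against 9.72. Uqcrc1 had means of 13.17 in WT and 12.85 in KO. Those above were Atp5c1 (14.27 in WT, 14.50 in KO), Cox6a1 (15.57, 15.75), Ndufs6, Uqcrh and Uqcrq. Over the 4 vehicle samples limma called 0 members and 0% of 24897 probes, with 1254 probes and 0 members at an unadjusted p under 0.05, and for Ndufa10 the difference KO minus WT was -0.45 ± 0.18 (SE; adjusted p = 0.891). With all 8 RNA samples and the pair as a random block limma called 840 probes (3.37%) and 1 member, Ndufa10, lower in KO (adjusted p = 0.0348). Genotype and slide cannot be told apart in any of these level differences. Among the 92 members that passed, the smallest range over the 8 samples was that of Ndufv2, a core subunit of complex I, with 0.115 from 13.92 to 14.03.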

How the data were processed

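Mouse palm skin RNA (8 samples, 4 comparisons) was measured on 8 two-colour Agilent arrays. The authors deposited Feature Extraction output (version 12.0.3.1 per the file headers, 11.0.1.1 per the labels; build mm9). The deposited intensities (mean, background and background-subtracted, dye-normalised processed signals), log10 ratios of red over green, p-value of each log ratio and 0 or 1 flags were computed by that software for the authors. A deposited value table repeats the log10 ratios and was not used for tests.

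Log ratios were given the sign of PACAP over vehicle and the base 2, outlier and control spots left out, spots of a probe averaged, and dye swaps averaged to 1 replicate. Levels used normexp (offset 50), loess and Aquantile in limma 3.58.1 (R 4.3.3), and fits used lmFit and eBayes over all probes. Ratios and counts used Python 3.11.15 and pandas 2.3.3. The counting rule and fits were tested on simulated data. Members, gene lists and the rule for named genes (called members, the extremes of each comparison, isoform partners, the smallest p) were chosen with earlier results of these data known. The replicate number marks dye orientation, not animals. A library count or depth does not apply to arrays, whose number limits precision. Alternatives were 2.0-fold, no p filter, normexp ratios, median centring, other probe rules, single arrays and left-out pairs.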

Additional observations from a re-analysis of the deposited data

Results flagged for a closer look

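In 7 members both WT arrays at 30 min went one way and both KO arrays the other, with both means past 1.2-fold. This was 7.61% of the 92 members, against 14.9% of all genes. The difference at 30 min was not tested, since each genotype had 1 pair of RNA samples, and limma's fit of KO against WT over both times called none of them. The muscle-type isoforms of complex IV were above 0 in WT and below it in KO: Cox6a2 had log2 ratios of 0.855 and -0.314, Cox7a1 of 0.644 and -0.335, and Cox8b of 0.626 and -0.294. Ndufs7, a core subunit of complex I, had 0.274 and -0.394. Assembly factors of complex I were below 0 in WT and above it in KO, with -0.287 and 0.477 for Ndufaf2, -0.346 and 0.565 for Ndufaf3, and -0.314 and 0.332 for Ndufaf6. Each genotype had a slide of its own, and their effects cannot be told apart.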

How the results depend on the processing

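Of 137 values of 20 results under alternatives, 122 kept their direction and side of the threshold or moved by less than the spread between arrays. Of the called values, 0 changed sign. Some alternatives could hardly change a value, so the 122 are not a measure of stability. The deposited copy of the log ratios repeats them, and every member that passed had both channels above background. For any 1 ratio, a single array lies closer to the mean of both arrays than the SD between them. The 2 members called higher in WT at 30 min became 0 at 2.0-fold. Cox7a1 was added, giving 3, with normexp and loess ratios and without the p filter (1.16% and 2.97% of all genes). Single arrays gave 1 (Cox6a2, without the second array) to 3 (without the first, all muscle-type isoforms), against 3.91% and 3.88% of all genes. In KO at 30 min single arrays gave 0 to 1 called higher (Ndufa11) and 0 to 1 called lower (Cox5a), against 3.94% to 5.11% and 4.36% to 4.63% of all genes. The member median in KO at 30 min was 0.0176 with normexp and loess, 0.0334 with median centring, 0.0227 with the median over probes, and -0.00268 to 0.00236 on single arrays. In KO at 60 min it was -0.0160 with the median over probes and -0.0187 to -0.00875 on single arrays, and in WT at 30 min -0.00661 to 0.0539 on single arrays. The median of the muscle-type isoforms ranged from -0.135 to 0.0350 on single arrays in WT at 60 min and from -0.0256 to -0.00884 in KO at 60 min. With all 8 RNA samples the vehicle-level fit called 1 member instead of 0. Normexp called 269 and 41 of all genes higher and lower in WT at 30 min, against 373 and 78, and 262 lower in KO at 30 min, against 382. In the fit with the replicate number (dye orientation) as a replicate block 0 members and 0 probes were called. The causes were not tested.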
